A study of Marmota monax with 203 samples.

Results

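Cytotoxic lymphocytes kill infected cells by releasing granules, in which perforin opens the target membrane and granzymes, a family of serine proteases, enter and trigger death. NK cells and effector CD8 T cells share this machinery and much of its control, including the T-box transcription factors T-bet and Eomes, the receptor chain through which IL-2 and IL-15 signal, and lectin-like receptors of the KLR family. The liver is rich in such cells, and type I interferon is a known activator of them. The results below are for 10 of these genes, taken by their symbols from the 17587 woodchuck genes in the data: the granule genes PRF1, GZMA, GZMB, GZMK and NKG7, the receptors KLRK1 and KLRD1, the cytokine receptor chain IL2RB, and the transcription factors TBX21 (T-bet) and EOMES. All 10 passed the filter on low counts at every week.

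RNA was sequenced from liver biopsies of woodchucks (Marmota monax) of both sexes, born in captivity and carrying chronic woodchuck hepatitis virus (WHV) since infection as neonates. One group received placebo and the other recombinant woodchuck interferon alpha (wIFN-α), injected under the skin at 20 µg per animal in the low dose stage (weeks 0 and 3) and 100 µg per animal in the high dose stage (weeks 7, 11 and 15). Per the study, each biopsy of weeks 0 to 15 followed a dose by 6 hours. For wIFN-α animals the biopsy of week 0 came after the first 20 µg dose and that of week 7 after the first 100 µg dose. Biopsies before treatment (week -3) and in follow-up after the last dose (weeks 19 and 23) complete the series. Study weeks are used throughout, and the labels of the biopsies from week 0 on are 1 week higher. Of the 164 biopsies, 149 were compared (81 of 12 placebo animals and 68 of 11 wIFN-α animals). The wIFN-α animal M1004, which the study also set aside, is described at the end. The numbers of placebo and wIFN-α animals were 12 and 11 at weeks -3 and 0, 12 and 9 at weeks 3 and 7, 10 and 8 at week 11, 9 and 8 at week 15, 5 and 6 at week 19, and 9 and 6 at week 23, so that later weeks hold partly different animals. Every animal entered as a carrier of the virus, so the comparison is of treated with untreated infected animals. Virus reads differed late in treatment. At week 15 they made up 0.00577% (M1002) to 2.23% (F1014) of reads in wIFN-α biopsies, with 0.0164% in F1020. In placebo biopsies of that week they made up 1.10% (F1021) to 2.785% (M1005). The part of virus load in the members' levels was not tested.

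The biopsies held 12072840 to 84805845 reads on genes, with a median of 28754894. Skeletal muscle markers took over 1% of the reads in 22 biopsies (14 placebo, 8 wIFN-α). Hepatocyte markers made up only 0.283% and 0.496% of reads in 2 biopsies of week -3, from F1018 (wIFN-α) and F1016 (placebo), which were also the lowest of their group for 9 of 10 members each. For M1008, a placebo animal, the 2 runs of the week 15 biopsy differed by a chi-square of 136.9 per degree of freedom, against a median of 1.85 over the 38 biopsies with more than 1 run. The count of members called at week 15 was 8 both with and without this biopsy.

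Most members were low in untreated liver. Per kilobase of transcript, which makes genes comparable, the median level over the 81 placebo biopsies was 4.12 CPM (reads on the gene, scaled to a library of 1e6 reads) per kb for KLRD1, the CD94 chain that pairs with NKG2 receptors, and 3.47 CPM per kb for NKG7, a membrane protein of the granule. IL2RB followed at 1.37, GZMA at 1.14, GZMB at 0.882, GZMK at 0.560, TBX21 at 0.502, KLRK1 at 0.417, PRF1 at 0.161 and EOMES at 0.154 CPM per kb. The interquartile ranges of KLRD1 (3.68 to 4.81) and NKG7 (2.74 to 4.39) overlapped and lay above all others, those of the next genes from IL2RB down to KLRK1 each overlapped with their neighbours in this order, and those of PRF1 and EOMES overlapped and lay below all others.

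Low levels set the precision. Of the 149 biopsies, 52 had fewer than 10 reads on PRF1, 32 on EOMES, 22 each on GZMB and GZMK and 13 on KLRK1, whereas none did for KLRD1. KLRD1 was also the steadiest member between untreated animals: the coefficient of variation of the 12 animal means was 11.8%, against 31.4% to 63.2% for the other 9 genes. The symbols come from homology of woodchuck contigs to human, mouse and rat transcripts, so that reads of closely related genes (other granzymes, other KLR receptors, and the read-through entry KLRC4-KLRK1 beside KLRK1) may be shared between entries.

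**Figure D1:**
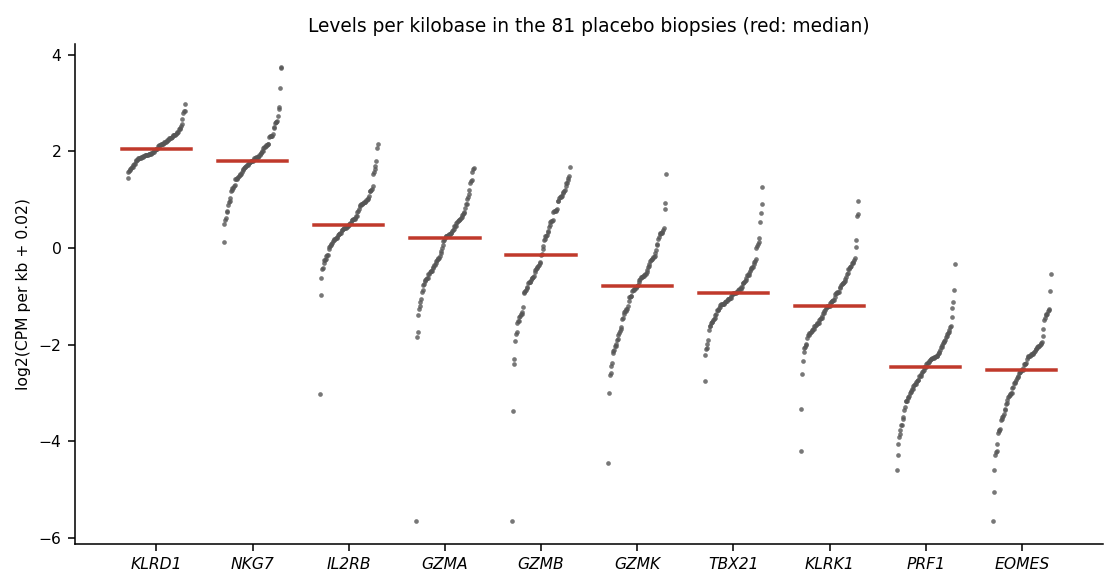
Levels of the 10 members in the 81 placebo biopsies, as log2(CPM per kb + 0.02) on the vertical axis, with 1 grey point per biopsy and the median as a red line. The medians run from 4.12 CPM per kb for KLRD1 down to 0.154 for EOMES.

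Across the untreated biopsies the levels of 8 members varied together, and those of GZMB and KLRD1 did so weakly. The correlation (Pearson, over 81 biopsies of 12 animals, on log2(CPM + 1)) with the mean of the other members was 0.86 for TBX21 and KLRK1, 0.80 for NKG7, 0.79 for IL2RB, 0.74 for EOMES, 0.73 for PRF1, 0.72 for GZMK and 0.65 for GZMA, but 0.19 for GZMB and 0.17 for KLRD1. Biopsies of the same animal are not independent points, and libraries differed in depth, so these values are descriptive. They include the week -3 biopsy of F1016, which had few hepatocyte reads and was lowest of its group for 9 members. M1008 had the highest animal mean for PRF1, GZMK, KLRK1, TBX21 and EOMES. The part of these animals in the correlations was not tested. Of 14802 genes outside the members, those most like the members' mean over the same biopsies were MYO1G (0.89), ARHGAP30 (0.89), the lymphocyte receptor CD27 (0.89), the T and NK cell kinase ZAP70 (0.88) and KLRC4-KLRK1 (0.87).

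Before treatment the groups did not differ detectably. At week -3, 0 of 10 members were called higher, where a call means an adjusted p under 0.05 (edgeR quasi-likelihood test, adjusted over all genes by Benjamini-Hochberg) and a fold change above 1.5. Among all 14963 genes tested the share called higher was 0%, and 130 genes had an unadjusted p under 0.05, none of them a member. The members' log2 fold changes lay between -0.05 and 0.64, with a median of 0.23 against 0.00 over all genes. Without the biopsies that held muscle reads the count was also 0.

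During treatment the number of members called higher in wIFN-α animals was 5 at week 0, 4 at week 3, 6 at week 7, 8 at week 11 and 8 at week 15, and none was called lower. Of all genes, 10.3% were called higher at week 0, 7.24% at week 3, 11.4% at week 7, 12.6% at week 11 and 13.4% at week 15. Fewer genes were called lower: 1198 of 14700, 531 of 15006, 1505 of 14868, 1194 of 14966 and 1319 of 14943. With 10 members, a count of 0 lower is therefore not particular to them. The median log2 fold change of the 10 members was 0.70, 0.76, 0.88, 1.35 and 1.45 at these weeks, while that of all genes lay between -0.04 and -0.01. In a piece of liver, more cells of a type and more RNA per cell cannot be told apart. GZMA, IL2RB and KLRD1 were called at all 5 weeks of treatment, and GZMK at none.

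**Figure D2:**
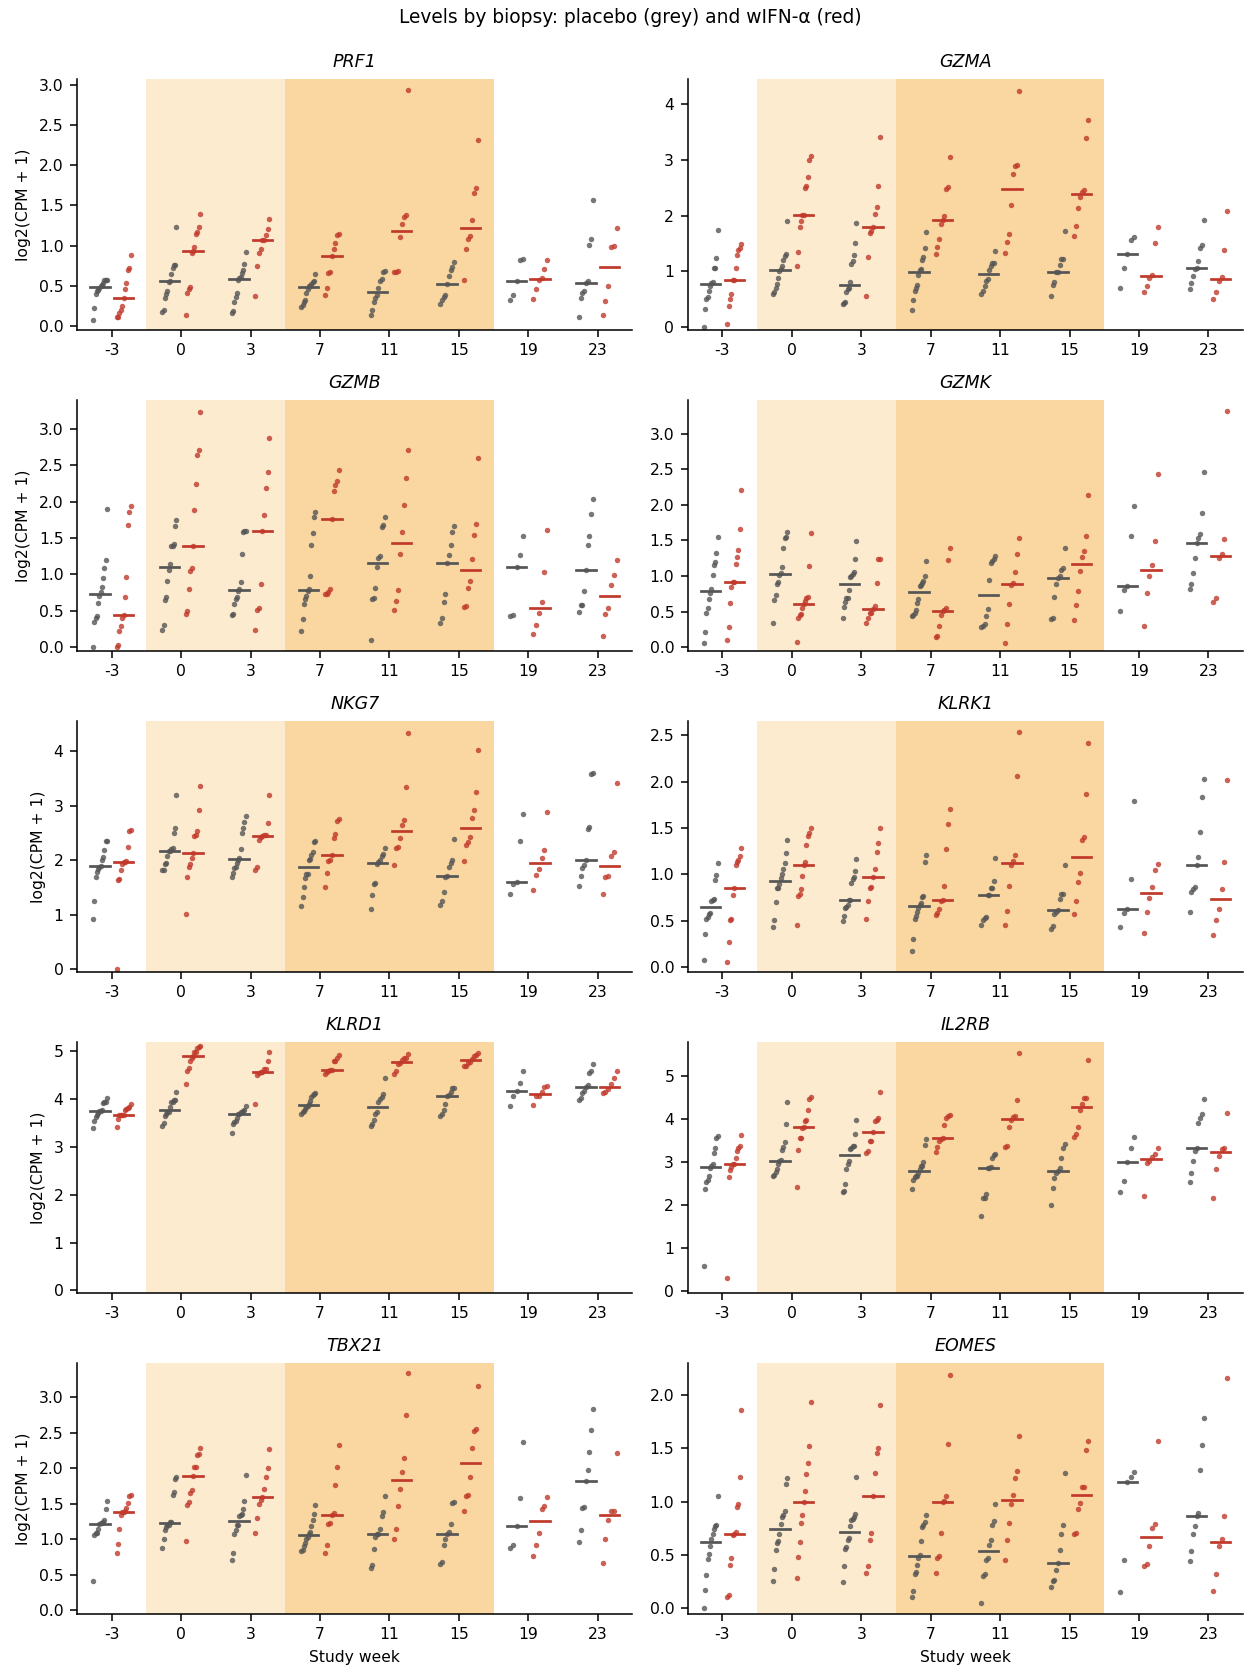
Levels of each member in every biopsy as log2(CPM + 1), by study week, with placebo in grey, wIFN-α in red and medians as bars; light shading marks the low dose weeks and darker shading the high dose weeks. KLRD1 separates the groups completely at all 5 treated weeks, while GZMK overlaps at every week.

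PRF1 encodes perforin, the pore-forming protein of the granule. At week 0 it spanned 0.0976 to 1.63 CPM in wIFN-α animals (median 0.909) and 0.124 to 1.34 in placebo animals (median 0.467), with an adjusted p of 0.126 (edgeR). At week 11 the range was 0.588 to 6.65 CPM (median 1.28) against 0.102 to 0.605 (median 0.342), and at week 15 it was 0.485 to 3.98 (median 1.33) against 0.207 to 0.736 (median 0.438). At week 15 every wIFN-α animal but F1014 exceeded the highest placebo animal. PRF1 rose 2.17-fold at week 3, 2.16-fold at week 7, 4.86-fold at week 11 (log2 2.28, SE 0.47, adjusted p 0.000795) and 3.88-fold at week 15 (log2 1.96, SE 0.37, adjusted p 0.000392, edgeR). Female F1020 was far above the rest at week 11, at 6.65 CPM against 1.60 for the next animal, and without F1020 and M1002 the log2 fold change at week 11 was 1.43 (adjusted p 0.00386, edgeR).

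GZMA encodes granzyme A, a tryptase of the granule, and had the largest fold change of the members at each of the 5 treated weeks. After the first dose, at week 0, it lay between 1.15 and 7.40 CPM (median 3.05) in wIFN-α animals and between 0.509 and 2.74 (median 1.03) in placebo animals. At week 15 the values were 2.12 to 12.1 CPM (median 4.196) against 0.472 to 2.31 (median 0.987). All 11 wIFN-α animals at week 0 and all 8 at week 15 were above the placebo median, and 8 and 7 of them above every placebo animal. GZMA rose 3.51-fold at week 0 (log2 1.81, SE 0.32, adjusted p 7.84e-05), 3.26-fold at week 3, 3.27-fold at week 7, 6.05-fold at week 11 (adjusted p 6.00e-05) and 4.89-fold at week 15 (log2 2.29, SE 0.37, adjusted p 8.19e-05, edgeR).

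GZMB, which encodes granzyme B, the caspase-cleaving protease of killer cells, took another course. Its median in wIFN-α animals was 1.64 CPM at week 0 (0.370 to 8.45), against 1.15 (0.178 to 2.35) in placebo, and 1.11 CPM at week 15 (0.473 to 5.07), against 1.23 (0.262 to 2.16). The groups overlapped at every week, and at each treated week 1 animal, F1014, held the highest value. GZMB was called higher only at week 0 (2.42-fold, log2 1.28, SE 0.50, adjusted p 0.0485, edgeR), and the call was lost without F1014 (log2 0.95, adjusted p 0.135), F1018, F1020, M1003 or M1007 (adjusted p 0.0587 to 0.0923) and without the biopsies with muscle reads (0.056). By week 15 the log2 fold change was 0.55 (SE 0.51, adjusted p 0.413).

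GZMK encodes granzyme K, a tryptase typical of memory-like CD8 T cells. At week 0 the wIFN-α animals lay between 0.0488 and 2.05 CPM (median 0.525) and the placebo animals between 0.269 and 2.06 (median 1.04), and only 2 of 11 wIFN-α animals exceeded the placebo median. The log2 fold change was -0.79 (SE 0.39, adjusted p 0.122, edgeR), below the level of placebo without passing the test, and leaving out M1007 alone brought it to -1.15 with an adjusted p of 0.0168. At week 15 the medians were 1.25 CPM (0.309 to 3.41) and 0.957 (0.317 to 1.63), a log2 fold change of 0.65 (SE 0.41, adjusted p 0.218). Compared with their own biopsy at week -3, 10 of 11 wIFN-α animals had less GZMK at week 0 and 11 of 11 had more GZMA, whereas among placebo animals 3 of 12 had less GZMK and 8 of 12 had more GZMA.

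NKG7 was detected well and was called higher only at weeks 11 and 15. The medians at week 0 were 3.36 CPM (1.02 to 9.29) in wIFN-α and 3.51 (2.53 to 8.21) in placebo animals, with a log2 fold change of 0.09 (SE 0.27). At week 15 they were 5.09 CPM (2.96 to 15.3) and 2.29 (1.25 to 4.23), and 5 of 8 wIFN-α animals were above every placebo animal. NKG7 rose 2.65-fold at week 11 (adjusted p 0.00303) and 2.73-fold at week 15 (log2 1.45, SE 0.32, adjusted p 0.00135, edgeR). From week 0 to week 15 NKG7 fell in 9 of 9 placebo animals (median change -0.52, log2(CPM + 1)). In wIFN-α animals it rose in 5 of 8 (median change 0.40).

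**Figure D3:**
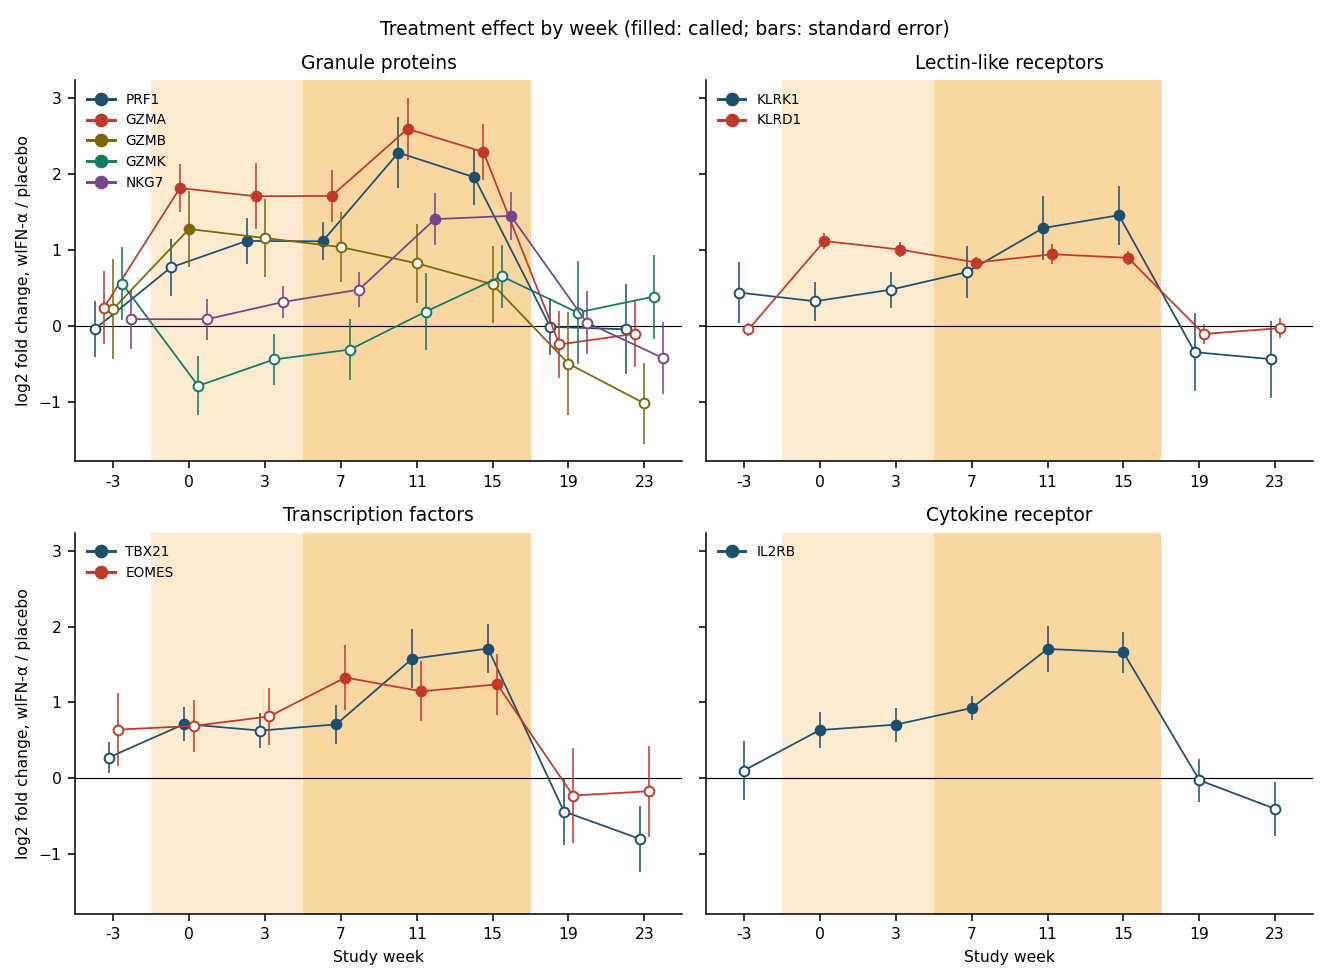
Log2 fold change of wIFN-α over placebo by study week for the members in 4 panels by role, with bars for the standard error and filled points for calls (adjusted p under 0.05 and fold change above 1.5, edgeR). Fold changes of PRF1, NKG7, KLRK1 and TBX21 are largest at weeks 11 and 15, that of KLRD1 is near 1 at every treated week, and no point is filled at weeks -3, 19 and 23.

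KLRD1 encodes CD94, which forms inhibitory or activating receptors with NKG2 chains. At week 0 the 11 wIFN-α animals lay between 18.8 and 33.5 CPM (median 29.2) and the 12 placebo animals between 9.92 and 16.7 (median 12.8). At week 15 the ranges were 24.9 to 30.3 CPM (median 27.1) and 11.6 to 17.9 (median 15.7). The groups did not overlap at weeks 0, 3, 7, 11 or 15, a separation with wIFN-α above, reached by 4.01%, 0.36%, 7.84%, 7.18% and 8.12% of all genes at these weeks. KLRD1 rose 2.17-fold at week 0 (log2 1.12, SE 0.10, adjusted p 3.09e-09), 2.005-fold at week 3, 1.78-fold at week 7, 1.92-fold at week 11 and 1.86-fold at week 15 (log2 0.90, SE 0.09, adjusted p 4.33e-07, edgeR). The fold change was already at its highest in the first low dose biopsy. In the week -3 biopsies of F1018 and F1016, which held few hepatocyte reads, KLRD1 was 9.73 and 9.585 CPM, against group medians of 11.8 and 12.5. IL2RB was 0.234 and 0.496 CPM in these biopsies, against group medians of 6.745 and 6.42. Which cells the KLRD1 reads came from was not tested.

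KLRK1 encodes NKG2D, an activating receptor for stress ligands on NK and CD8 T cells. Its range at week 0 was 0.366 to 1.83 CPM (median 1.15) in wIFN-α animals and 0.355 to 1.59 (median 0.910) in placebo animals, which gave a log2 difference of 0.32 (SE 0.26). At week 15 it was 0.485 to 4.33 CPM (median 1.30) against 0.326 to 1.15 (median 0.533). Of the 8 wIFN-α animals, 4 were then above every placebo animal. KLRK1 rose 2.44-fold at week 11 (adjusted p 0.0207) and 2.75-fold at week 15 (log2 1.46, SE 0.39, adjusted p 0.00591, edgeR), but without F1020 and M1002 neither week was called (log2 0.38 and 0.77, adjusted p 0.374 and 0.0646, edgeR). At week 11 leaving out F1020 (adjusted p 0.0838) or M1002 (0.0518) alone was enough.

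IL2RB encodes the shared beta chain of the IL-2 and IL-15 receptors. At week 0 it lay between 4.34 and 21.9 CPM (median 12.98) in wIFN-α and between 5.38 and 19.9 (median 7.19) in placebo animals. At week 15 the ranges were 11 to 40.8 CPM (median 18.5) and 3.02 to 9.75 (median 5.87). The groups overlapped at weeks 0, 3 and 7 and were apart at weeks 11 and 15. IL2RB rose 1.55-fold at week 0 (adjusted p 0.0447), 1.63-fold at week 3, 1.90-fold at week 7, 3.26-fold at week 11 (adjusted p 0.000232) and 3.16-fold at week 15 (log2 1.66, SE 0.27, adjusted p 8.26e-05, edgeR). The call at week 0 was lost when any of 7 wIFN-α animals was left out (adjusted p 0.0537 to 0.0906, edgeR), and that at week 3 without F1020, F1022 or M1003 (0.0514 to 0.0825) or without the biopsies that held muscle reads (0.111).

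TBX21 encodes T-bet, the T-box factor that drives the type 1 effector program. At week 0 it lay between 0.976 and 3.85 CPM (median 2.72) in wIFN-α and between 0.843 and 2.67 (median 1.34) in placebo animals, and at week 15 between 1.63 and 7.96 CPM (median 3.27) and between 0.564 and 1.89 (median 1.10). At week 15, 7 of 8 wIFN-α animals were above every placebo animal. TBX21 rose 1.64-fold at week 0 (adjusted p 0.0157) and at week 7 (adjusted p 0.0261), 2.98-fold at week 11 and 3.27-fold at week 15 (log2 1.71, SE 0.33, adjusted p 0.000417, edgeR), and at week 3 the log2 fold change was 0.63 with an adjusted p of 0.0596. The call at week 7 was lost without M1002 (adjusted p 0.0915, edgeR) or M1007 (0.0648).

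EOMES, the related factor of NK cells and memory CD8 T cells, had fewer reads. At week 0 it spanned 0.220 to 2.83 CPM (median 1.00) in wIFN-α animals against 0.192 to 1.33 (median 0.680), and at week 15 0.618 to 1.97 CPM (median 1.10) against 0.148 to 1.404 (median 0.342). The groups overlapped, with placebo animals F1016 (0.626 CPM), F1017 (0.722) and M1008 (1.404, the biopsy whose 2 runs differ) above the lowest wIFN-α animal, although all 8 wIFN-α animals at week 15 were above the placebo median. EOMES rose 2.51-fold at week 7 (adjusted p 0.0144), 2.21-fold at week 11 (adjusted p 0.0295) and 2.36-fold at week 15 (log2 1.24, SE 0.40, adjusted p 0.0187, edgeR). Without F1020 and M1002 the adjusted p was 0.168 at week 11 and 0.118 at week 15 (edgeR). Single animals sufficed at week 7 (M1007, 0.0682) and at week 11 (F1020, M1002 or M1003, 0.0503 to 0.0787), and the call at week 11 was also lost without the biopsies with muscle reads (0.0575).

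Single animals stood at the top for most members. F1020 was the highest wIFN-α animal for 8 of 10 members at weeks 11 and 15, and it also had the highest CD3D, a chain of the T cell receptor complex, at 22.3 and 27.6 CPM. M1007 was the highest for 6 members at week -3, before treatment, for 5 at week 0 and for 4 at weeks 3 and 7, M1002 was the highest for 4 at week 7 too, and F1013 was lowest for 8 at week 3. F1020, M1002 and M1007 had no biopsy at weeks 19 and 23. Among the animals left, F1013 was the highest for 7 members at week 19 and for 9 at week 23, when its CD3D was 13.1 CPM. Whether the number of T cells accounts for these values was not tested.

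**Figure D4:**
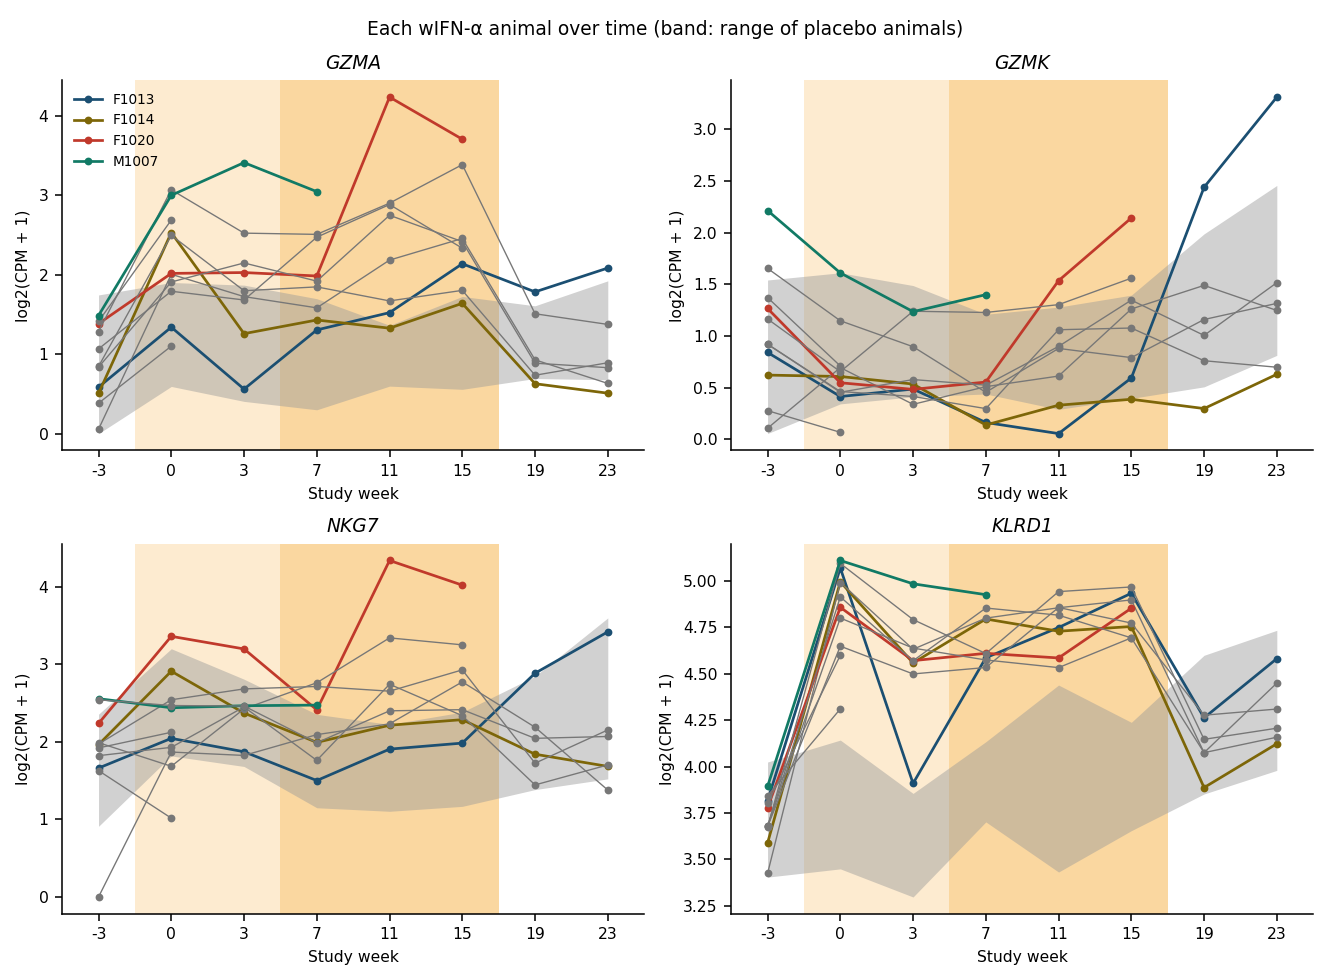
Levels of GZMA, GZMK, NKG7 and KLRD1 as log2(CPM + 1) in each wIFN-α animal over the study weeks, with F1020, F1013, M1007 and F1014 coloured and the range of the placebo animals as a band. GZMA of F1020 reaches 17.9 CPM at week 11, and GZMK of F1013 reaches 8.92 CPM at week 23.

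To ask whether the response differed between the dose stages, the effect at week 15 was compared with the mean effect at weeks 0 and 3. Dose and time on treatment changed together and cannot be told apart. Of the members, only NKG7 had a larger effect at week 15 (difference of log2 fold changes 1.19, SE 0.35, adjusted p 0.0446, edgeR), with 2.04% of all genes called in that direction. For IL2RB, TBX21, KLRK1 and GZMK the differences were 0.93, 0.98, 1.00 and 1.21, with adjusted p of 0.101, 0.0936, 0.151 and 0.199. For GZMA and EOMES they were 0.46 (95% interval -0.50 to 1.43) and 0.44 (-0.52 to 1.41), and for KLRD1 the difference was -0.22 (-0.47 to 0.03). PRF1 had 0.95 (adjusted p 0.309, edgeR), and GZMB had the most negative value, -0.73 (-2.06 to 0.60). The placebo animals moved as well from week 0 to week 15. NKG7 fell in 9 of 9 of them, KLRK1, TBX21, EOMES and IL2RB in 8 of 9, and PRF1, GZMB and GZMK in 7 of 9. GZMA rose in 5 of 9 and KLRD1 in 6 of 9. The part of these placebo changes in the differences was not tested.

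Because the same animals were sampled at both stages, the test was repeated with the animal as a replicate block, which called 6 members (NKG7, GZMK, TBX21, IL2RB, KLRK1 and EOMES) and 7.07% of all genes. The largest difference there was that of GZMK, 1.52 (SE 0.36, adjusted p 0.00447, edgeR), whose log2 fold changes of -0.79 at week 0 and 0.65 at week 15 had not been called. KLRD1 (-0.18, adjusted p 0.295) and GZMB (-0.18, adjusted p 0.788) were not called in it. The count without the block depended on single animals: it was 0 without F1018, F1020, M1002 or M1003 and 2 without M1012.

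After treatment ended, no member differed detectably from placebo. At week 19, 0 of 10 were called and 0% of all genes, with median log2 fold change -0.17, and at week 23 again 0 of 10 and 0% of all genes, with -0.29. Among all genes 1859 and 2416 had an unadjusted p under 0.05 at these weeks and DESeq2 called 89 and 53, while no member had an unadjusted p under 0.05. For no member did every wIFN-α animal lie above the placebo range at either week (0.714% of all genes at week 19 and 0.0468% at week 23 were apart in this direction). The mean effect at weeks 19 and 23 was smaller than the effect at week 15 for 7 of 10 members, against 17.5% of all genes: GZMA (-2.42, SE 0.50, adjusted p 0.000262), TBX21 (-2.29), PRF1 (-1.95), IL2RB (-1.83), KLRK1 (-1.81), NKG7 (-1.60) and KLRD1 (-0.93, SE 0.14, adjusted p 1.57e-06, edgeR). With week 19 alone against week 15, NKG7 (adjusted p 0.0595) and KLRK1 (0.0505) did not pass. F1020 and M1002 were in the week 15 group but had no biopsy at weeks 19 and 23. The contrast of the mean effect was not run without both animals. With single wIFN-α animals left out, it called 7 to 8 members.

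EOMES (-1.42, adjusted p 0.0987), GZMB (-1.27, adjusted p 0.165) and GZMK (-0.34, adjusted p 0.741) did not pass that test, and with the animal as a replicate block EOMES and GZMB did (adjusted p 0.00665 and 0.00197, edgeR). Within animals, KLRD1 and GZMA were lower at week 23 than at week 15 in 6 of 6 wIFN-α animals. The placebo animals moved as well: NKG7, KLRK1, TBX21 and EOMES were higher at week 23 than at week 15 in 8 of 8, and so was CD3D. The median KLRD1 level of placebo animals was 11.9 CPM at week 3 and 18.3 CPM at week 23.

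Between males and females the effect at week 15 was not shown to differ for any member (0 of 10, and 0% of all genes, with 715 genes at an unadjusted p under 0.05 and 19 called by DESeq2). The difference for KLRD1 was -0.19 (95% interval -0.56 to 0.18), but for the other 9 members the intervals were wide, reaching past 1 on the log2 scale in at least 1 direction, as for GZMA (-0.99 to 1.995) and PRF1 (-1.83 to 1.28).

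Other genes of killing and its control were taken from lists drawn up by function. They are to be read against the 13.4% of all genes called higher at week 15, and the 1319 of 14943 called lower. Of 8 granule proteins and processing enzymes tested at week 15, 3 rose: SERPINB9, the inhibitor that protects cells from granzyme B (log2 1.88, SE 0.12), the granule proteoglycan SRGN (1.14) and the protease CTSW (0.84). GNLY, another granule gene, was not analysed here. SERPINB9 ranged from 68.7 to 100.1 CPM in wIFN-α animals and from 16.3 to 28.8 in placebo animals, without overlap, and its log2 fold change was 1.855 at week 0 already. Of 9 genes of granule secretion 2 rose, the syntaxin STX11 (1.74) and RAB27A (0.69). The median log2 fold change was 0.65 over the first list and 0.21 over the second, against -0.01 over all genes.

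Of 22 NK receptor genes listed, 17 had an entry and 10 passed the filter at week 15. CD226 (log2 1.52), CD160 (1.30) and SLAMF7 (1.24) rose, all of them found on T cells too. KLRC1, which encodes the partner chain NKG2A of CD94, did not pass (0.60, SE 0.37, adjusted p 0.213), nor did the Fc receptor FCGR3A (0.73, adjusted p 0.197) or NCAM1 (-1.34, adjusted p 0.263, edgeR). NCAM1 was called lower at week 7 (-1.47, adjusted p 0.0445, edgeR), as was CRTAM at weeks 7 and 11 (named after its values were seen). NCR1, the receptor most particular to NK cells, was too low to be tested, with a median of 3 reads a biopsy. NCAM1 had a median of 3.76 CPM in the 22 biopsies with muscle reads and 0.373 CPM in the other 127.

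The signalling adaptors were called at the same weeks as NKG7 and KLRK1: none of 8 tested rose at weeks 0, 3 and 7, 5 of 9 rose at week 11 and 8 of 9 at week 15. HCST (DAP10), which couples NKG2D, rose by 1.44 (SE 0.26, adjusted p 0.000264) and TYROBP (DAP12), the adaptor of activating KLR receptors, by 0.94 (adjusted p 0.0205, edgeR). ZAP70 (1.36) and FCER1G (1.13) rose as well. Of 8 IL-2 and IL-15 pathway genes 4 rose at week 15, among them IL15 (1.85), IL15RA (1.61) and the common gamma chain IL2RG (1.45). IL15 had already risen at week 0 (1.15), when the value of IL2RG was 0.01.

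Among the factors and products of effector cells, the transcription factors TOX (log2 2.37), RUNX3 (1.87) and NFIL3 (1.53) were among 5 of 10 that rose at week 15, with a list median of 0.84. Of 8 effector cytokines and death ligands tested 7 rose, including TNF (3.07), TNFSF10, which encodes TRAIL (2.47), CCL4 (2.30) and FASLG (2.11, SE 0.28, adjusted p 1.10e-05, edgeR). IFNG, the gene of interferon gamma, was too low to be tested in any single week (0 to 4.199 CPM in wIFN-α and 0 to 0.289 in placebo animals at week 15). In the follow-up contrast, where it was tested, its effect was called smaller after treatment, as for 8 of 9 genes of the list. In the IL-12 and IL-18 axis 2 of 6 genes rose, IL18RAP (2.74) and IL12RB1 (1.08), and 2 fell, IL18 (-0.73) and IL12B (named after its values were seen), with a list median of -0.32. Of 10 homing receptors 4 rose, among them CD69 (2.16) and CXCR3 (1.38).

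**Figure D5:**
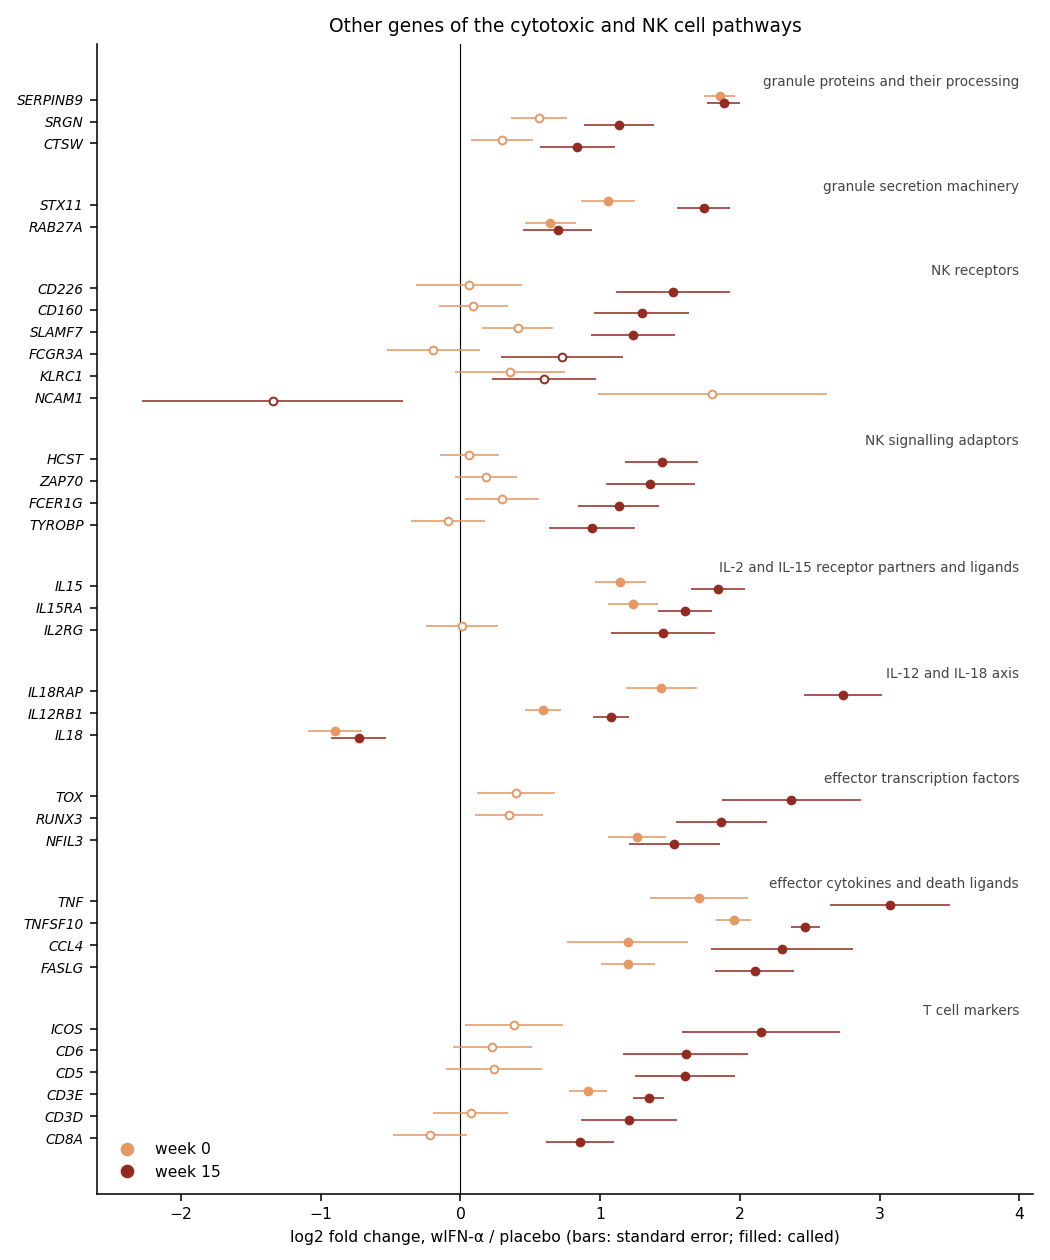
Log2 fold change of wIFN-α over placebo, with standard errors, at weeks 0 and 15 for the named genes of each list. HCST, ZAP70, IL2RG and CD3D lie near 0 at week 0 and between 1.21 and 1.45 at week 15, while SERPINB9 is near 1.9 at both.

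Markers of some other cells were also higher at week 15, when 13.4% of all genes were called higher. At weeks 0, 3 and 7 each marker list had at most 1 gene called higher. At week 15, 7 of 10 T cell markers tested rose, among them CD3E (log2 1.35), CD3D (1.21) and CD8A (0.86), and the summed level of the 12 markers was 115.4 to 253.5 CPM in wIFN-α animals (median 133.3) and 46.7 to 90.2 in placebo animals (median 75.3). At week 0 the T cell marker sum had a median of 112.4 CPM in wIFN-α and 75.3 in placebo animals, and at week 3 106.4 and 79.2, with overlapping ranges. The sum gives markers with many reads the most weight, and the median log2 fold change over the markers tested was 0.13 at week 0 and 0.22 at week 3. CD3E was the marker called higher at weeks 0 (0.91), 3 and 7, when GZMA and KLRD1 were called too, while CD3D (0.07) and CD8A (-0.22) were not called at week 0 and CD4 was called lower at week 7. The B and plasma cell list had 5 of 9 genes called higher at week 15, the myeloid list 4 higher and 1 lower of 10, the neutrophil list 2 higher and 1 lower of 9, and the hepatocyte list 1 of 12, with none of the 20 muscle markers called. The part of these cells in the members' changes was not tested.

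The libraries were spread over sequencing lanes. For weeks 7, 11 and 15 together, and among biopsies sequenced on a single lane (those run on several lanes were left out here), the wIFN-α mean exceeded the placebo mean for 9, 10, 9, 8 and 8 of 10 members within lanes 2, 3, 4, 6 and 7, with median differences of 0.25, 1.06, 0.37, 0.49 and 0.34 on the log2(CPM + 1) scale, while lanes 5 and 8 held only 1 such wIFN-α biopsy each and gave no value. GZMA, KLRD1, TBX21, EOMES, PRF1 and IL2RB were higher in all 5 of the lanes with a value. Those lanes held only 2 to 5 wIFN-α and 2 to 4 placebo biopsies each, and 1 animal could give several. In lane 3, with the largest median difference, the 5 wIFN-α biopsies were from F1018 (week 11), F1020 (weeks 7 and 15) and M1002 (weeks 7 and 11). These values are descriptive.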

How the data were processed

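Per the labels and the methods of the study, poly(A) TruSeq libraries of liver RNA were sequenced as paired-end 50 nt reads, demultiplexed with CASAVA, checked with FastQC, mapped with Bowtie2 to the second version of a woodchuck transcriptome assembly and counted with SAMtools. Tool versions are not given in the sources used here. The authors deposited, for each of 203 runs, expected counts per gene without normalization (118 of 3368022 entries above 0 are not whole), and RPKM values, which the authors derived from these counts by transcript length and library size. RPKM served only for transcript lengths and as an alternative at week 15. Genes not listed in a run were taken as 0, the entry for the virus (0.00342% to 4.11% of reads) was removed, and no column lacked a sample.

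Runs of a biopsy were summed and rounded. Each week was fitted by itself with edgeR 4.0.16 in R 4.3.3 (filterByExpr, TMM, quasi-likelihood test, Benjamini-Hochberg), on the biopsies of that week. Weekly calls combine 2 limits, 0.05 on the adjusted p and 1.5 on the fold change, and the dose, follow-up and sex contrasts use the limit on the adjusted p alone. CPM use TMM library sizes, and correlations, changes within animals and lane differences use log2(CPM + 1). Intervals are 1.96 standard errors to either side (95%). DESeq2 1.42.0 and limma 3.58.1 served as alternatives, and summaries and figures used Python 3.11.15, numpy 2.4.6, pandas 2.3.3 and matplotlib 3.10.9. The fits were tested on simulated data first. Replicates are animals, but PCR reads carry no molecular identifiers.

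The members, lists and rules were chosen with earlier results of these data known. Named are all 10 members, of each list up to 3 genes called at week 15 with the largest change, 15 further genes of NK and T cells whatever their values, and the 5 genes most like the members' mean. Animals link the weeks: over 13915 genes, deviations of the same animal at different weeks had a median correlation of 0.393 in the dose contrast (55 pairs, 38 above 0.1) and 0.345 in the follow-up contrast (36 pairs, 31 above 0.1), against -0.0149 and -0.0489 between animals.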

Additional observations from a re-analysis of the deposited data

Results flagged for a closer look

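In 100 groups of 4 to 10 animals (a member at a week), 6 held an animal far from the others by Dixon's test, where chance flags about 1 in 20. F1013 was low for KLRD1 at week 3, at 14.02 CPM with the next animal at 21.61. F1020 was high for PRF1 at week 11, at 6.645 CPM with the next at 1.597. F1013 was high for EOMES at week 19 (1.975 CPM, next 0.7276) and week 23 (3.453 CPM, next 0.8187) and for GZMK at week 23 (8.921 CPM, next 1.86). F1022 was low for IL2RB at week 19, at 3.601 CPM with the next at 6.885. All 6 are wIFN-α animals. Groups of 11 or 12 animals were not tested, which left out placebo at weeks -3, 0, 3 and 7 but wIFN-α only at weeks -3 and 0.

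Effects differed between stages for 7 members. The effect on NKG7 was larger at week 15 than at the low dose weeks by 1.191 on the log2 scale. After treatment the effect was smaller than at week 15, by a log2 difference of -2.424 for GZMA, -2.289 for TBX21, -1.947 for PRF1, -1.833 for IL2RB, -1.812 for KLRK1, -1.598 for NKG7 and -0.9323 for KLRD1, each past the adjusted threshold of edgeR.

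M1004, the wIFN-α animal outside the comparisons, was above every placebo animal for 4 of 10 members at week -3, before treatment. The number was 5 at week 0, 7 at week 3, 6 at week 7, 5 at week 11, 7 at week 15 and 1 at week 19. Its levels are per library size, without the TMM factor. Other wIFN-α animals were also above every placebo animal at week -3, 4 of them for KLRK1, 2 each for NKG7 and TBX21 and 1 for IL2RB. The share of all genes for which M1004 lay above the placebo range was not computed, so these counts do not show whether M1004 was unusual.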

How the results depend on the processing

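No called value of a member changed sign under the alternatives run. Of the members' recomputed values, 1945 kept their direction and side of the threshold or moved by less than their error, 58 lost a call, 22 gained one and 95 values that were uncalled or had no test moved further. At week 0, 3 members instead of 5 were called with a fold change above 2, with limma-voom and with 1 fit of all weeks, and 3 to 6 when single wIFN-α animals were left out (6 without F1023, 3 without F1014, F1020, M1003 or M1007). At week 7 a fold change above 2 left 3 of 6 (4 to 7 without single animals, 4 without M1007), and leaving out single animals gave 3 to 5 at week 3, 6 to 8 at week 11 and 8 at week 15. Leaving out both F1020 and M1002, chosen after seeing the data, gave 6 at weeks 11 and 15. In the dose contrast, where the main count was 1, the animal as a replicate block gave 6 and weeks 7, 11 and 15 together against the low dose weeks gave 2. The count was 0 for week 15 against week 3, for week 15 against week 0, with no filter on low counts, without the biopsies with muscle reads, and without F1020 and M1002, and 0 to 2 without single animals. The replicate block gave 9 members instead of 7 in the follow-up contrast, week 19 alone against week 15 gave 5, and single animals left out gave 7 to 8. Calls were gained for PRF1 at week 0 without F1023, for EOMES at week 0 without muscle biopsies, for TBX21 at week 3 without F1013 or F1018, without muscle biopsies, with M1004, with 1 run per biopsy (the deepest) and with DESeq2, and for GZMB at week 7 without F1013, F1022 or M1012.

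Over all genes, a fold change above 2 left 1269 of 2719 calls at week 0, 790 of 1618 at week 3, 1471 of 3205 at week 7, 1534 of 3073 at week 11 and 1709 of 3327 at week 15. The 421 genes of the dose contrast became 2082 with the replicate block, 1315 with all high dose weeks, 33 against week 3 alone, 273 without muscle biopsies, 138 without F1020 and M1002, 222 without F1020, 252 without M1002 and 643 without M1012. Where the main count was 0, 1 fit of all weeks called 9 genes at week -3 and 243 at week 23, DESeq2 called 89 at week 19, 53 at week 23 and 19 for sex, and 1 was called at week 19 without placebo animal F1016. The causes were not tested. Calls were lost with limma-voom for TBX21 at week 7 and KLRK1 at week 11, and with 1 fit of all weeks for IL2RB at week 3 and EOMES at week 11. Differences in RPKM at week 15 are not compared, since the added 1 shrinks those of low genes by construction. Placebo animals were left out singly at weeks 15 and 19 and in no other weekly comparison. Counts under 10 reads limit PRF1 and EOMES most.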

Other observations

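Before treatment M1004 had 5.42 CPM of NKG7, 1.45 of KLRK1, 2.25 of TBX21 and 13.6 of IL2RB, the members above every placebo animal at week -3, and its CD3D was 8.90 CPM against at most 7.74 in placebo animals. At week 15 its GZMA was 7.73 CPM and its KLRD1 25.3 CPM, inside the range of the other wIFN-α animals, and at week 19 they were 1.12 and 20.4 CPM.

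Another 8 biopsies were taken outside the common weeks and enter no comparison (levels per library size). Of the wIFN-α animals, M1006 at week 2 had 23.8 CPM of KLRD1, 2.39 of GZMA and 0.180 of GZMK. M1002 at week 25 had 15.5 CPM of KLRD1, 0.887 of GZMA and 2.20 of GZMK. In biopsies whose labels give no week, KLRD1 was 20.4 CPM in F1020, 10.4 in F1023 and 23.3 in M1007, and GZMA was 3.20, 0.813 and 4.16 CPM. Of the placebo animals, F1017 and M1010 at week 17 had 16.9 and 18.6 CPM of KLRD1, and F1024 (no week given) had 16.8 CPM.

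The 2 runs of the M1008 biopsy at week 15 gave 18.2 and 26.4 CPM of KLRD1 and 0.683 and 1.78 CPM of GZMA, each per reads of the run.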
